A study of Rattus norvegicus with 65 samples.

Results

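Met, the gene of the hepatocyte growth factor receptor, stood far above its usual level in 6 of 65 arrays of tumors labelled as rat mammary. Those 6 arrays are described here against the other 59. The arrays were chosen by the measurement itself: after each array was scaled to a common median, every array with Met above 10 on the log2 intensity scale was taken. All 6 came from 1 of the 11 transplant series, series 42, and they are all the arrays of that series: its primary tumor and its transplants 1 to 5. The 59 other arrays came from the 10 series numbered 10, 13, 17, 19, 25L, 25R, 32, 33, 34 and 36. The comparison is therefore 1 tumor line against 10 tumor lines.

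Met is a receptor tyrosine kinase. Its ligand, hepatocyte growth factor, is secreted as an inactive form and cut by surface proteases that Spint1 and Spint2 inhibit, and the activated receptor recruits Gab1, Grb2 and other adaptors that feed the ERK and PI3 kinase pathways. In the mammary gland the receptor sits on epithelial cells and the ligand comes mostly from the stroma, and in mouse embryos Met is also required in migrating muscle precursor cells. Cd9 is a tetraspanin, a small membrane protein that gathers integrins and other surface proteins into microdomains and is abundant on epithelium.

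Both groups were labelled as rat mammary tumors that began with carcinogen treatment and were then passed through up to 5 generations of syngeneic hosts. No engineered allele is named for either group, and the strain, the carcinogen, the ages and the invasive behaviour of each tumor are not given in the sources used here. Series 42 had 6 arrays (primary tumor and transplants 1 to 5), and the other 10 series had 10 primary tumors, 10 tumors of each of transplants 1 to 4 and 9 of transplant 5. Total RNA came from whole frozen tissue, so each tumor past the primary holds host cells beside the tumor cells, and fewer cells of a type cannot be told apart from less RNA per cell.

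The values that chose the line were widely separated. Met, read by 1 probe set on chromosome 4, had a log2 intensity of 11.60 in the series 42 primary tumor and 11.60, 11.34, 11.88, 11.65 and 11.95 in transplants 1 to 5, against a lowest value of 5.31, a median of 6.63 and a highest of 8.35 over the 59 other arrays. The lowest array inside the threshold was transplant 2 of series 42 at 11.34, and the highest outside were the primary tumor of series 13 at 8.35 and its transplant 1 at 8.11. Cd9, named with the rule and also on chromosome 4, ran the other way: it was at 6.18, 6.11, 5.31, 5.31, 5.73 and 5.31 in series 42, against 9.99 at the lowest, 10.97 at the median and 11.75 at the highest in the other arrays. The value 5.31 is the floor, below which intensities were not ordered. No test is given for Met or Cd9, since they defined the group or were named with it.

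**Figure D1:**
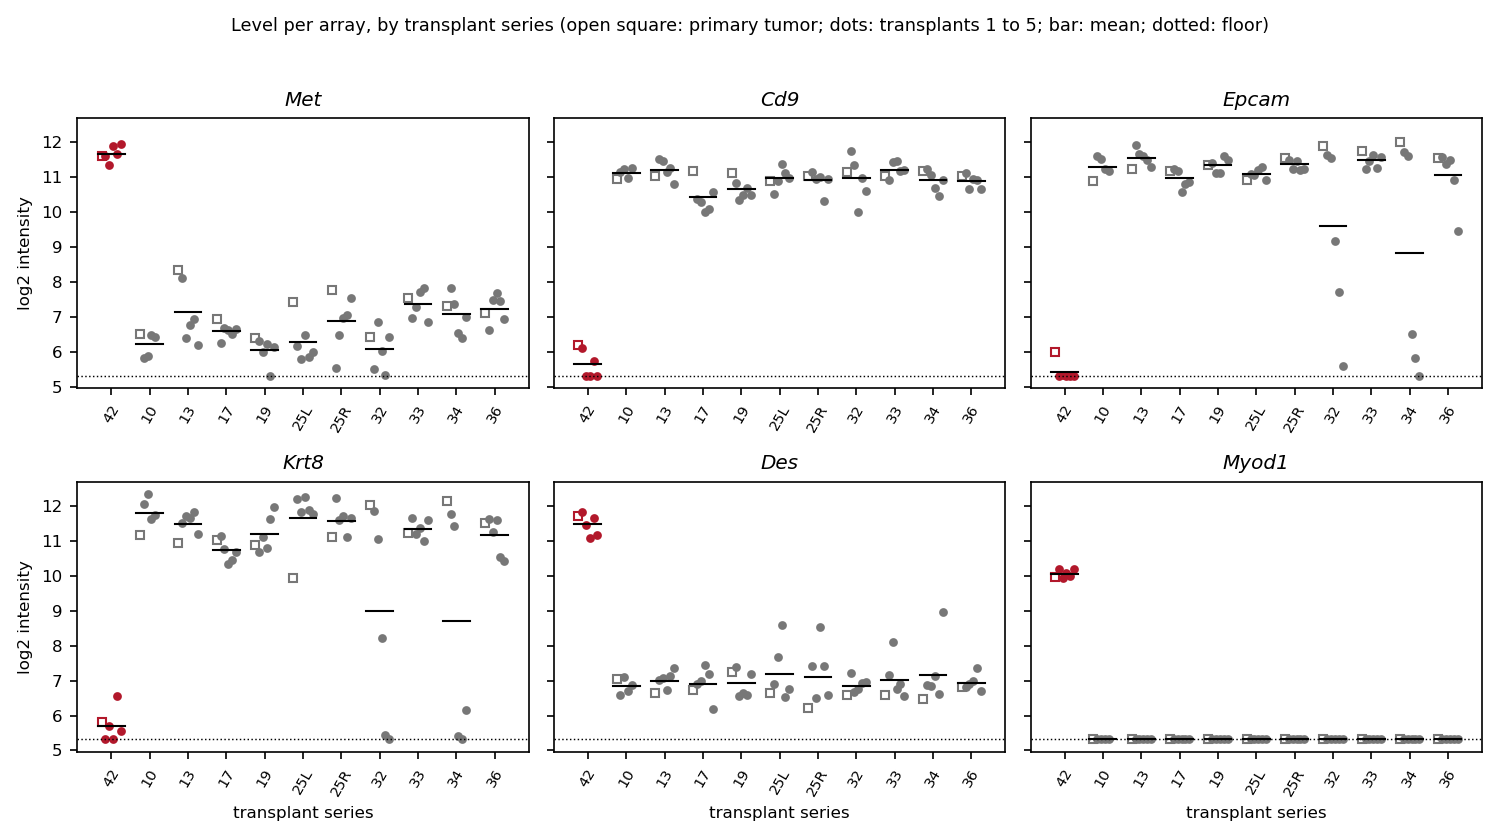
Log2 intensity of Met, Cd9, Epcam, Krt8, Des and Myod1 on every array, by transplant series, with series 42 in red at the left, open squares for primary tumors, dots for transplants 1 to 5 in order, black bars for the mean of a series and a dotted line for the floor at 5.31. Met, Des and Myod1 were higher and Cd9 lower in all 6 series 42 arrays than on any other array, while Epcam and Krt8 overlapped only with late transplants of series 32 and 34.

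The arrays of series 42 were dimmer than most before scaling. Their median intensities were 143 to 147, against 96.1 to 176 in the other lines, where the lowest was transplant 5 of series 32 and the next 143. The log2 ratio of the 3 prime to the 5 prime Gapdh probe sets, a sign of RNA quality, was 0.11 to 0.19 in series 42, against -0.18 to 0.37 in the other lines. No 2 arrays held identical values. Late transplants of series 32 and 34 were low in epithelial markers too (Epcam at 5.58 and 5.31 in their transplant 5 tumors), so counts are also given without those 2 lines.

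To compare lines, each line was reduced to 1 value per gene with generation held fixed, and series 42 was set against the mean of the 10 others with limma, which assumes that the lone line varies like the others. Of 8497 tested genes other than Met and Cd9, 1891 passed a Benjamini-Hochberg adjusted p of 0.05 (22.3%): 1044 rose in series 42 (12.3%) and 847 fell (9.97%). The median difference over all tested genes was 0.06 on the log2 scale. Of the changes, 349 rises and 510 falls were at least 2-fold. The 6 series 42 arrays lay above every other array for 237 genes (2.79%) and below every other array for 156 (1.84%). The line was picked because 1 gene stood out in it, and 1 line of 11 cannot reach an exact p below 0.0909 for a single gene, so the calls rest on limma's pooled spread and hold for this line alone. Without rescaling, 37.0% of the called genes were higher in series 42, against 55.2% in the main setting, with the median of all genes at -0.09. The count was 2428 without series 32 and 34 and 1996 without the series 32 transplant 5 array. With series 25L and 25R, which share a series number, averaged into 1 line, it was 1677.

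The counts of separated genes were higher in series 42 than in any other line. Series 42 had 123 genes at least 1 log2 unit above every other line and 281 at least 1 unit below, whereas no other line had more than 26 above or 3 below. Each line was set against all others, series 42 included. A gene at the floor in series 42 could therefore not count as below for another line, which limits those counts. The other lines were not counted with series 42 left out.

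The genes with the largest falls were those of mammary epithelium. Epcam, the epithelial cell adhesion molecule, was at 6.00, 5.31, 5.33, 5.31, 5.31 and 5.31 in series 42, against 5.31, 11.27 and 12.01 at the lowest, median and highest of the other arrays, a difference of -5.41 ± 0.81 (SE; adjusted p = 0.000944). Krt19, a keratin of simple epithelium, was at the floor in all 6 series 42 arrays and at a median of 11.24 elsewhere, at least 43.3-fold lower in series 42 (adjusted p = 0.00108). Where all 6 arrays are at the floor, as for Krt18, Fxyd3 and Igfbp2 too, the difference is a lower bound on its size. Krt8 (-5.14), Krt18 (-4.73), which pair in luminal cells, and Krt5 (-5.02) and Krt15 (-4.75), keratins of basal cells, fell as well. So did Spint2 (-4.68), the inhibitor of hepatocyte growth factor activating proteases, and Fxyd3 (-5.30), a regulator of the sodium pump. The other 4 of the 12 largest falls were Lcn2 (-5.59), a siderophore-binding secreted protein, Gp2 (-5.20), a membrane glycoprotein of secretory granules, Csn3 (-4.95), the milk protein kappa casein, and Igfbp2 (-4.75), an insulin-like growth factor binding protein. Of these 12 genes, only Gp2 lost its call under an alternative, when the transplants were fitted alone.

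Across the list of luminal genes, 20 of 21 tested members fell and none rose, with a median of -2.92, against 9.97% falls over all genes. Its mean level was 5.84 to 6.25 in the series 42 arrays, against 6.14 to 9.89 in the other arrays (median 9.24), and 9 of the 22 members on the array were at the floor in all 6 series 42 tumors. Of 17 tested junction genes, 11 fell and none rose (median -2.58). Cdh1, the adherens junction protein E-cadherin, was at 5.31 to 5.51 in series 42, against 5.31, 10.50 and 11.03 at the lowest, median and highest elsewhere (difference -4.66 ± 0.82 SE, adjusted p = 0.0024). Perp, a desmosome protein, and Cldn4 and Cldn3, tight junction proteins, were at the floor in all 6 arrays of the line and at medians of 9.69, 9.20 and 9.44 elsewhere, although Cldn3 lost its call on leaving out series 25R or transplant 1, with an adjusted p of up to 0.10 over its 30 alternatives.

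The basal and myoepithelial list had 7 falls and 1 rise among 15 tested genes, against 9.97% and 12.3% of all genes. Mylk (-3.69), the myosin light chain kinase, and Sfn (-3.53), an epithelial 14-3-3 protein, were among the falls, and Cav1 (2.81), a caveolae protein, was the rise. Krt14, another basal keratin, was at 6.45 to 6.94 in series 42, against a median of 9.99 elsewhere (-3.12 ± 0.88 SE, adjusted p = 0.0251), and its call was lost without transplant 2. The defining epithelial markers of the labelled tissue, Epcam, Krt8, Krt18, Krt19 and Cdh1, were thus at or near the floor in every array of this line, the primary tumor included. The tissue of origin of these 6 tumors was not tested, and they are called by their series number. Epcam was also low in the transplant 5 tumors of series 32 (5.58) and 34 (5.31), whose primary tumors were at 11.91 and 12.01. Krt8 was at 5.31 and 6.16 and Cdh1 at 5.68 and 5.31 in those 2 transplants. Met was at 6.41 and 7.0 there, below 10 by the rule itself. Cd9, named with the rule, was at 10.61 and 10.92.

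**Figure D2:**
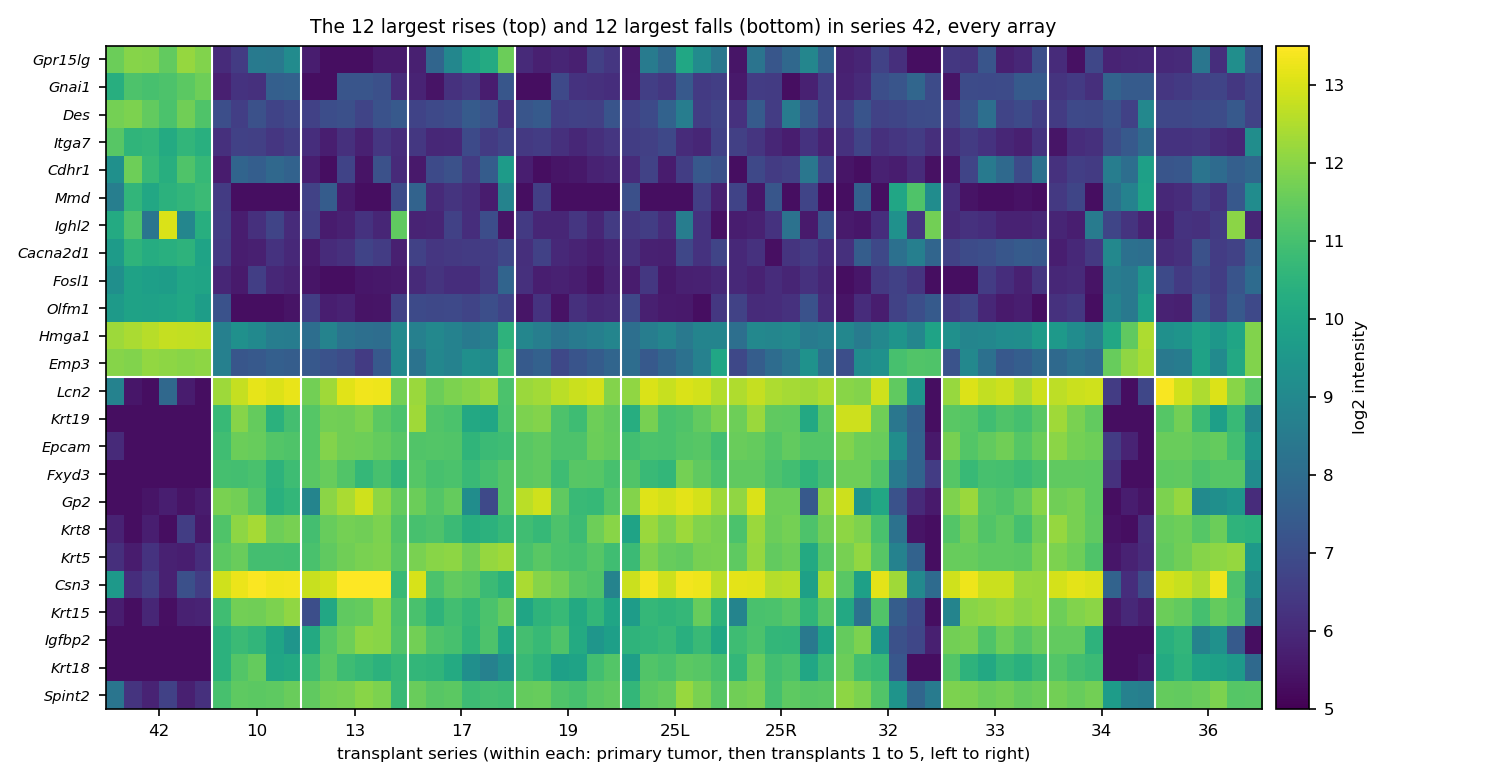
Log2 intensity of the 12 genes with the largest rise (top) and the 12 with the largest fall (bottom) in series 42, with 1 column per array, series 42 at the left and the other lines after it, each from primary tumor to transplant 5. Des stays at 11.09 to 11.83 across the series 42 columns, whereas Csn3 is at 9.59 in the primary tumor and 5.77 to 7.06 in the transplants and Ighl2 spans 8.30 to 13.03, and the late columns of series 32 and 34 share the low keratins.

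The largest rises held muscle genes next to genes of other kinds. Des, the muscle intermediate filament protein desmin, was at 11.72, 11.83, 11.46, 11.09, 11.67 and 11.17 in series 42, against 6.20, 6.89 and 8.96 at the lowest, median and highest of the other arrays (difference 4.49 ± 0.15 SE, adjusted p = 4.94e-09). Itga7, the laminin-binding integrin chain of muscle cells, was at 10.21 to 11.30 in series 42, against 5.50, 6.24 and 9.16 elsewhere (4.24 ± 0.23 SE, adjusted p = 5.36e-07). Gnai1, an inhibitory G protein subunit, was at 10.34 to 11.63 in series 42, against 5.31, 6.45 and 7.80 elsewhere (4.61 ± 0.32 SE, adjusted p = 5.81e-06). None of these 3 overlapped with any other array, and neither did Cacna2d1 (3.65), an accessory subunit of calcium channels.

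The other 8 of the 12 largest rises overlapped with some other arrays. The 8 were Gpr15lg (4.87), a secreted ligand of the receptor Gpr15, Cdhr1 (3.86), a cadherin of photoreceptors, Mmd (3.77), Ighl2 (3.76), an immunoglobulin gene by its annotation, Fosl1 (3.61), an AP-1 transcription factor, Olfm1 (3.53), a secreted olfactomedin, Hmga1 (3.49), a chromatin architectural protein, and Emp3 (3.45), a membrane protein. Ighl2 ranged from 8.30 to 13.03 within series 42, wider than the other 11. Emp3 lost its call with the transplants fitted alone. Transplant 5 of series 34, low in Epcam, overlapped with series 42 for Cdhr1 (9.83), Mmd (9.89) and Fosl1 (9.43). That tumor also overlapped for Olfm1 (9.79), Hmga1 (12.44) and Emp3 (12.40), but not for Gpr15lg (5.93) or Ighl2 (5.81). Mmd was at 11.16 in transplant 4 of series 32.

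Myod1, the muscle lineage transcription factor, was at 9.96, 10.19, 9.94, 10.08, 9.99 and 10.20 in series 42 and at the floor of 5.31 in all 59 other arrays. It and Phex, an endopeptidase gene, were the only 2 of 10411 genes above the floor in all 6 arrays of the line and at the floor in all others. Phex was close to the floor, at 5.67 to 6.63 in series 42. The filter on low mean levels keeps such genes out of the main test because they are high in only 6 arrays. The fold of Myod1 has only a lower bound, because every other array was at the floor, and no test is given for it, since it was picked for this pattern. Conversely F3, the tissue factor that starts clotting, Cebpd, a bZIP transcription factor, Serinc2 and Spast were at the floor in all 6 series 42 arrays and above it in all 59 others. Their lowest values in the others were 6.97, 5.51, 6.34 and 5.37, so Cebpd and Spast came close to the floor there.

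Some genes of the nerve-muscle synapse were picked next, after their values were seen. Musk, the receptor kinase of that synapse, was at 8.20, 8.63, 8.67, 8.30, 8.66 and 8.73 in series 42, against 5.31, 5.31 and 5.61 at the lowest, median and highest elsewhere. The acetylcholine receptor subunits Chrnb1 (7.97 to 8.47 in series 42, against 5.31 to 6.56) and Chrng (6.91 to 7.80, against 5.31 to 6.35) did not overlap with other arrays either, and Chrng belongs to the fetal form of the receptor. Chrnd rose by less (0.81 ± 0.24 SE, adjusted p = 0.0304) and lost its call in 5 of 29 alternatives, among them leaving out transplant 1, with differences of 0.65 to 1.26. Other genes of this synapse did not go the same way: the receptor subunit Chrna1 was at 8.59 in the series 42 primary tumor and 6.08 to 7.13 in its transplants, against a median of 6.78 and a highest of 7.37 elsewhere, and Agrn, the synapse organizer agrin, fell (-2.27). Klhl41, a sarcomere-associated protein, was at 9.07 to 9.59 in series 42, against 5.31, 5.31 and 7.89 at the lowest, median and highest elsewhere.

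Myod1, Phex and the synapse genes were picked after their values were seen, as was a wider list of 59 muscle genes. Of these 59, 47 were on the array, 31 were tested and 16 of those rose, against 12.3% of all genes. Since the list was picked from these values, its count supports nothing beyond the values given. Among the risers were Nes (3.07), the intermediate filament protein nestin, Fhl1 (2.38), a LIM domain protein of muscle, Unc45b (1.2), a myosin chaperone, and Sgca (1.08), a sarcoglycan of the muscle membrane. Sgca was at 8.67 to 8.79 in series 42, against 7.12 to 8.20 in the other arrays.

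In the list of skeletal muscle fibre genes 1 of 9 tested members rose, against 12.3% of all genes, and 11 of the 20 on the array were below the filter and not tested. The riser was Acta1, the skeletal actin, with 12.23 in the series 42 primary tumor and 9.88, 9.60, 7.96, 8.76 and 9.23 in transplants 1 to 5, against 5.31, 5.31 and 12.36 at the lowest, median and highest elsewhere. Its difference of 3.13 ± 0.94 (SE, adjusted p = 0.0321) lost its call without transplant 5. Ckm, the muscle creatine kinase, was at 6.63 to 6.90 in series 42, against 5.68, 6.31 and 11.62 at the lowest, median and highest elsewhere, a difference of 0.13 (adjusted p = 0.862). Dmd, the dystrophin gene, differed by -0.02 (adjusted p = 0.968) and Myh8, a perinatal myosin, by -0.10 (adjusted p = 0.836), both from the list picked later. The mean level of the fibre list was 6.74 to 7.65 in series 42, against 5.92, 6.15 and 9.38 at the lowest, median and highest elsewhere, so all 6 arrays lay above that median. Of its members, 2 of the 20 on the array were at the floor in all 6 tumors of the line.

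Upstream sequence is shown for Des and Musk, which were high in all 6 series 42 arrays, and for Myog, which was high in the primary tumor of the line alone, because the muscle factors of the Myod1 family are known to bind the E-box CANNTG. The 250 bases before the annotated start are from RefSeq (assembly GRCr8), in lower case with each match to CANNTG in capitals, a pattern that reads the same on both strands. The Des stretch is chr9:84299376-84299625, the Musk stretch chr5:77853486-77853735 and the Myog stretch chr13:48297226-48297475, all on the plus strand.
Des: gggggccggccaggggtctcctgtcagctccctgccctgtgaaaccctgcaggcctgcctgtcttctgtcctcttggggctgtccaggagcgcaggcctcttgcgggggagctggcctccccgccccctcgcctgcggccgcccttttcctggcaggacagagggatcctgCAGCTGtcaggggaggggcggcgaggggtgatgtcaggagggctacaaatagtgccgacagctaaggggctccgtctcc
Musk: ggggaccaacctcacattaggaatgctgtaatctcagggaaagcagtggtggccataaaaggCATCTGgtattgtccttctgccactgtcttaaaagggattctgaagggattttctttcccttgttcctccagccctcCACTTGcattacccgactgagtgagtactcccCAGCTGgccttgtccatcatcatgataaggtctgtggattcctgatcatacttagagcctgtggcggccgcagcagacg
Myog: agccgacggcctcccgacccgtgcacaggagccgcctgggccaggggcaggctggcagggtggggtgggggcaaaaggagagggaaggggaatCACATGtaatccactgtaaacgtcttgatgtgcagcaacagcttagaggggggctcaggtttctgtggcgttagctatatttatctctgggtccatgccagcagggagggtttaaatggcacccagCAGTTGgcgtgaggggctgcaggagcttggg
Des held 1 match, Musk 3 and Myog 2. The same window of Met held 0 and that of Cd9 held 3. The pattern is common, with 65.5% of 33469 promoters of the same length holding at least 1, so the matches describe these letters only.

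The pathway around Met was mixed. Of 38 tested genes of HGF and Met signalling, 5 rose and 8 fell, against 12.3% and 9.97% of all genes. The share of rises was thus near that of all genes, and the median difference was -0.12. Beside Spint2, the falls were led by Src, a cytoplasmic kinase, which was at 6.17, 6.79, 5.94, 6.51, 5.54 and 5.65 in series 42, against 7.74, 9.18 and 10.24 at the lowest, median and highest elsewhere (-3.04 ± 0.22 SE, adjusted p = 6.26e-06). The groups did not overlap. Itgb4, the hemidesmosome integrin chain that partners with Met, fell by 2.81 ± 0.51 (SE, adjusted p = 0.00276).

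The other falls were St14 (-2.31), the surface protease matriptase that cuts the ligand's inactive form, Plxnb1 (-1.52), a plexin that associates with Met, Stat3 (-1.10), a transcription factor downstream of it, Lrig1 (-1.09), a negative regulator of receptor kinases, and Gab1 (-0.85), the docking protein of Met. The rises were Cd44 (2.5), a hyaluronan receptor that serves as a Met coreceptor, Plau (1.85), the urokinase protease, Map2k1 (1.04) and Akt2 (0.95), kinases of the ERK and PI3 kinase branches, and Crk (0.84), an adaptor. Cd44 was at 10.64 to 11.15 in series 42, against 6.62, 8.20 and 11.78 elsewhere, and it lost its call in 12 of 30 alternatives, 8 of which leave out 1 line or 1 transplant, with an adjusted p of up to 0.07. The adaptor Grb2 differed by -0.12 (adjusted p = 0.655). The ligand gene Hgf was not among the tested genes.

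Genes that report the output of the ERK pathway were mixed as well, with 3 rises and 5 falls among 23 (median -0.11). Over all genes the shares were 12.3% and 9.97%. Fosl1 was at 9.24, 9.89, 9.79, 9.74, 10.02 and 9.97 in series 42, against 5.31, 5.95 and 9.43 elsewhere, where the top array overlapped with the series 42 primary tumor. Areg, a ligand of the EGF receptor, was at the floor in all 6 series 42 arrays and at a median of 8.76 elsewhere (at least 10.2-fold lower, adjusted p = 0.00447). Fos, an immediate early transcription factor, fell by 2.35 ± 0.51 and Spry1, a feedback inhibitor of receptor signalling, by 2.17 ± 0.24 (SE). The further members called were Spry2 (-2.08) and Ier3 (-1.95), lower in series 42, and Ccnd1 (1.08), the cyclin of the restriction point, and Dusp5 (1.05), an ERK phosphatase, both higher.

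Other growth factor genes were lower more often than higher: 2 of 34 rose and 10 fell (median -0.34), against 12.3% and 9.97% of all genes. Ephb4, an ephrin receptor, was at 5.31 to 5.46 in series 42, against 6.31, 8.51 and 9.58 elsewhere (-3.11 ± 0.31 SE, adjusted p = 7.7e-05). Tgfb3 (-2.89) and Bmp7 (-2.52), ligands of the TGF beta family, did not overlap either. Kitlg (-2.57), the Kit ligand, and Kit itself (-1.85) fell. The receptor kinases Egfr (-2.30) and Erbb2 (-1.18) fell too.

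Tetraspanins and their partners moved both ways. Of 27 tested without Cd9, 7 rose and 5 fell, against 12.3% and 9.97% of all genes, and the median of 0.02 was -0.07 under quantile normalization and -0.14 without rescaling. Tspan9 was at 9.74 to 10.17 in series 42, against 7.39, 8.10 and 9.83 elsewhere (1.84 ± 0.32 SE, adjusted p = 0.00239), and Cd37, a tetraspanin of white blood cells, rose by 1.92 ± 0.40 (adjusted p = 0.00584). Tspan7 (1.62), Cd151 (1.10), an integrin partner, Itga3 (1.07), Cd63 (1.00) and Cd82 (0.79) were the other rises. The falls were Itgb4, Tspan12 (-1.77), Tspan8 (-1.50), Tspan1 (-1.32) and Tspan15 (-0.50). Tspan12 was at 9.25 in the series 42 primary tumor and at 6.43 to 7.04 in its transplants, against a median of 9.19 elsewhere. Its call was lost in 14 of 30 alternatives and its sign turned in the primary tumors alone, where the difference was 0.11.

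Mesenchymal genes rose more often than they fell. Of 24 tested, 7 rose and 1 fell (median 0.36), against 12.3% and 9.97% of all genes. S100a4, a calcium-binding protein, was at 12.22 to 12.76 in series 42, against 6.15, 8.83 and 13.01 elsewhere (3.31 ± 1.04 SE, adjusted p = 0.0395), and Lgals1, a galectin, at 12.84 to 13.10, against 5.89, 9.92 and 13.18 (3.15 ± 0.97 SE, adjusted p = 0.0362). Both overlapped with other arrays. In the Epcam-low transplant 5 tumors of series 32 and 34, S100a4 was at 12.25 and 13.01 and Lgals1 at 13.01 and 13.18. Each of the 2 genes lost its call in 8 of 30 alternatives, among them leaving out series 25L, 25R or transplant 1, with adjusted p up to 0.14 and 0.11. Nes did not overlap with other arrays. Vim, the mesenchymal filament protein vimentin, differed by 1.53 and did not pass (adjusted p = 0.0552), and Fn1, fibronectin, by -1.12 (adjusted p = 0.468). Zeb1, a transcription factor that represses E-cadherin, rose by 0.72 (adjusted p = 0.0127).

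Of 31 tested fibroblast matrix genes none rose and 4 fell, a share of falls near the 9.97% of all genes: Fbln2 (-2.58), Sfrp1 (-2.10), Cxcl12 (-1.80) and Fmod (-1.6), and the median was -0.86. Col1a1, the main fibrillar collagen chain, was at 9.5 to 11.80 in series 42, against 6.21, 11.18 and 13.20 elsewhere, a difference of -0.26 (adjusted p = 0.851). The mean level of the list was 7.69 to 8.81 in series 42, against 6.96 to 10.46 elsewhere. Basement membrane and integrin genes had 3 rises and 7 falls among 20, against 12.3% and 9.97% of all genes. Agrn (-2.27), agrin, and Lamb1 (-1.86), a laminin chain, were lower, and Lamb1 did not overlap, at 6.69 to 7.71 in series 42, against 8.30 to 10.75 elsewhere.

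Matrix proteases had 2 rises and 6 falls among 23 (median -0.28), against 12.3% and 9.97% of all genes. Mmp3, the protease stromelysin, was at 5.31 to 6.46 in series 42, against 6.80, 10.23 and 13.12 elsewhere (-4.47 ± 0.93 SE, adjusted p = 0.00599). Mmp13 (-3.01), Timp3 (-2.85), a protease inhibitor, and Adamts1 (-2.13) fell.

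**Figure D3:**
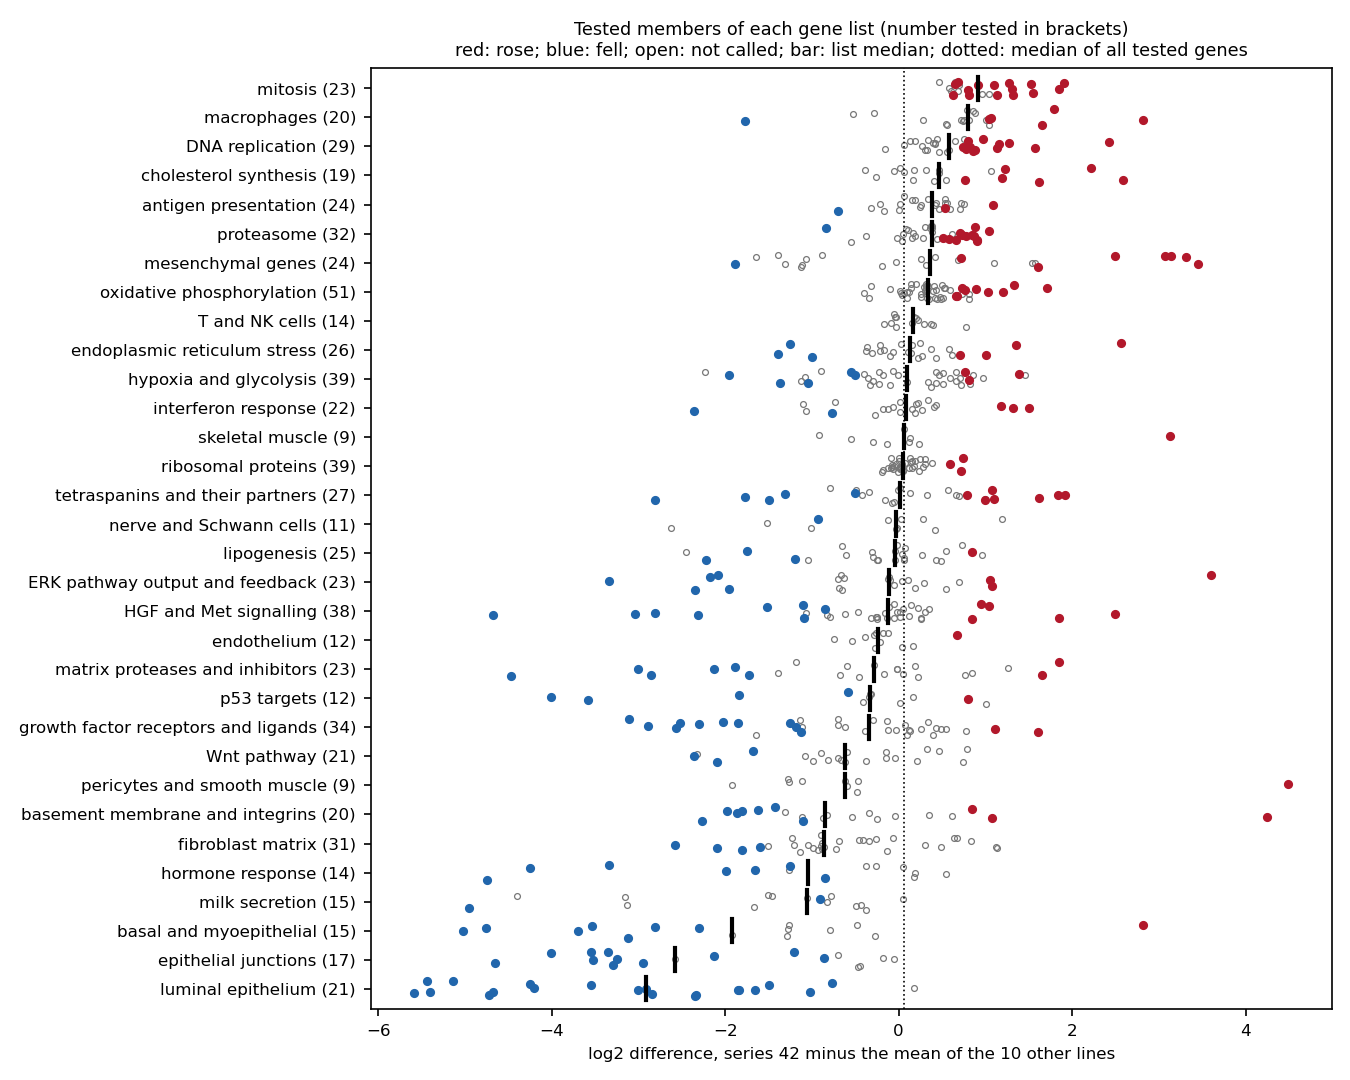
Difference in log2 intensity between series 42 and the mean of the 10 other lines for the tested members of each gene list with at least 9 of them, without Met and Cd9, where red points rose, blue points fell, open points did not pass the test, bars mark list medians and the dotted line is the median of all tested genes at 0.06. Medians run from 0.91 for mitosis at the top to -2.92 for luminal epithelium at the bottom.

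Genes of cell division were higher. Of 23 tested mitosis genes 15 rose and none fell, with a median of 0.91, and of 29 DNA replication genes 12 rose and none fell (median 0.58), against 12.3% rises over all genes. Kif22, a chromosome-binding kinesin, was at 9.33, 9.90, 9.57, 9.27, 9.87 and 9.57 in series 42, against 6.02, 7.72 and 9.16 elsewhere (1.90 ± 0.34 SE, adjusted p = 0.00251). Rpa3, a subunit of the single-strand DNA binding complex, was at 9.98 to 11.39, against 6.93, 8.20 and 9.30 (2.42 ± 0.22 SE, adjusted p = 3.58e-05), and it lies on chromosome 4. Neither gene overlapped with other arrays. Cdc25b (1.85), Cks2 (1.55), Pold1 (1.57) and Mcm6 (1.27) rose as well, and the last 3 of these lost their call in the primary tumors alone. The mean level of the mitosis list was 8.56 to 9.12 in series 42, against 6.82, 8.04 and 8.92 at the lowest, median and highest elsewhere.

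Of 12 tested p53 target genes 1 rose and 4 fell, against 12.3% and 9.97% of all genes. Plk2, a polo-like kinase, was at 5.31 to 6.14 in series 42, against 6.70, 9.12 and 11.23 elsewhere (-3.59 ± 0.55 SE, adjusted p = 0.00104), while Cdkn1a, the cell cycle inhibitor p21, rose by 0.80 ± 0.23 (SE, adjusted p = 0.0248).

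Housekeeping programs are given by their counts, against 12.3% rises, 9.97% falls and 2.79% above every other array over all genes. Of 32 proteasome genes 12 rose and 1 fell (median 0.38) and 7 lay above every other array, with Psmc4, an ATPase subunit, at 10.28 to 10.75 in series 42, against 8.97 to 9.97 elsewhere. Of 51 oxidative phosphorylation genes 9 rose and none fell (median 0.34). Among them were Uqcrc1 (1.71), a core subunit of complex III, and Sdhd (1.33), an anchor subunit of complex II, both on chromosome 8 and both without overlap. Ribosomal protein genes had 3 rises among 39, a share below that of all genes: Rpl14, Rpsa and Rpl4, all on chromosome 8. The list median of 0.05 was -0.18 under quantile normalization and -0.11 without rescaling.

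Cholesterol synthesis had 6 rises and no fall among 19 (median 0.46), against 12.3% and 9.97% of all genes. Msmo1, a sterol oxidase, was at 11.26 to 11.84 in series 42, against 7.83, 8.98 and 11.13 elsewhere (2.59 ± 0.30 SE, adjusted p = 0.00018), and Cyp51, a sterol demethylase on chromosome 4, rose by 1.62 ± 0.15 (adjusted p = 3.58e-05). Both were without overlap. Srebf1 (-1.75), a transcription factor of lipid synthesis, and Agpat2 (-2.22), an acyltransferase of fat synthesis, fell, and of 25 lipogenesis genes 1 rose and 3 fell. Asns (2.56), asparagine synthetase on chromosome 4, was among the 4 rises in 26 endoplasmic reticulum stress genes, and Pdia4 (-1.39), a protein folding enzyme, among the 3 falls.

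Hormone response genes fell more often than they rose. Of 14 tested none rose and 7 fell (median -1.05), against 9.97% of all genes that fell. Prlr, the prolactin receptor, was at the floor in all 6 series 42 arrays, against 5.31, 10.09 and 11.96 elsewhere (-4.25 ± 1.17 SE, adjusted p = 0.0221), and it lost its call without transplant 1. Of 15 milk genes 2 fell, a share near that of all genes, and the mean level of the list was 6.68 to 7.55 in series 42, against 6.58 to 10.26 elsewhere. The falls were Csn3 and Stat5b (-0.90), the transcription factor of prolactin signalling. Csn3 stood at 9.59 in the primary tumor of the line and at 5.77 to 7.06 in its transplants, against 6.12, 12.63 and 13.63 elsewhere.

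Among markers of host cell types, 5 of 20 macrophage genes rose and 1 fell, against 12.3% and 9.97% of all genes (median 0.80). Lyz2, lysozyme, was at 12.63 to 12.99 in series 42, against 9.0, 11.14 and 12.63 elsewhere (1.79 ± 0.42 SE, adjusted p = 0.0108), and Cd68, a lysosomal protein of macrophages, rose by 1.07 (adjusted p = 0.0226) but lost its call without transplant 1. Cd14, a receptor for bacterial lipopolysaccharide, fell by 1.77 ± 0.40. The macrophage list averaged 9.06 to 9.95 in series 42, against 7.81, 8.78 and 9.96 at the lowest, median and highest elsewhere, with none of its members on the array at the floor in all 6 tumors. Its part in the other differences was not tested.

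Of 14 T and NK cell genes none was called (median 0.17). Over all genes 12.3% rose and 9.97% fell, and the small lists of this paragraph can hold few or no calls at such shares. Flt1, a VEGF receptor, was the only call among 12 endothelial genes, at an adjusted p of 0.0499 that was lost in 17 of 30 alternatives. Fat cell genes (6 tested) and red cell genes (3 tested) held no call. Of 11 nerve genes 1 fell, Pmp22 (-0.93), a myelin protein, which lost its call in 15 of 30 alternatives, and the Schwann cell factor Sox10 was at the floor in all 6 series 42 arrays, against a median of 8.47 elsewhere (adjusted p = 0.0924). Of 6 granulocyte and mast cell genes 1 fell, Kit. The smooth muscle list of 9 had 1 rise, Des, while Myh11, the smooth muscle myosin, differed by -1.28 (adjusted p = 0.438). The single tested B cell gene did not pass.

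Immune and hypoxia lists were near the background of 12.3% rises and 9.97% falls over all genes. Interferon genes had 3 rises and 2 falls among 22, with Ifitm3, a membrane antiviral protein, at 8.98 to 10.33 in series 42, against 10.52, 12.05 and 12.49 elsewhere (-2.36 ± 0.16 SE, adjusted p = 4.87e-06). Antigen presentation had 2 rises and 1 fall among 24. Hypoxia and glycolysis genes had 3 rises and 5 falls among 39. Wnt pathway genes had 3 falls and no rise among 21, with Fzd6 (-2.36), a Frizzled receptor at the floor in all 6 tumors.

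Met's neighbours on chromosome 4 were mostly higher too. In the gene order of the GRCr8 assembly, the 5 tested genes before Met were Mdfic, Tfec, Tes, Cav2 and Cav1, with differences of 1.32, 0.44, 1.01, 1.89 and 2.81, of which Mdfic, Cav2 and Cav1 passed. The 5 after it were Capza2, Lsm8, Kcnd2, Tspan12 and Ing3, with 1.92, 1.62, 0.02, -1.77 and 0.91. Capza2, Lsm8 and Ing3 rose and Tspan12 fell. Over all genes 12.3% rose and 9.97% fell. Cav1, the caveolin of membrane caveolae, was at 12.23 to 12.60 in series 42, against 7.56, 9.43 and 11.90 elsewhere. Capza2, an actin capping protein, averaged 11.36 ± 0.28 (SD, n = 6 arrays) in series 42, against 8.82, 9.47 and 9.97 elsewhere (1.92 ± 0.13 SE, adjusted p = 4.87e-06). Neither overlapped.

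Tested genes were also taken in chromosome order in 331 windows of about 25 genes, leaving out Met and Cd9. The window with the highest median in the genome ran from Bet1 to Capza2, with the place of Met just before its last gene. Past Capza2, Lsm8 and Ing3 rose, whereas Tspan12, Ptprz1 (-2.16) and Cadps2 (-1.76) fell. The median difference of the window was 1.29, with 16 of 25 genes up and none down, against 12.3% and 9.97% of all genes. Its per-array medians were 1.2 to 1.44 in series 42, against line medians of -0.15 to 0.11 elsewhere. The next window was the one before it on chromosome 4, from Pmpcb to Gng11, with a median of 1.05, 14 rises and 1 fall. Ranks 3 to 5 were neighbouring windows on chromosome 8, from Nudt16 to Nbeal2, with medians of 0.58, 0.84 and 0.73. These 5 were the only windows above 0.5, and 0 windows lay below -0.5.

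By chromosome, the share of tested genes that rose was 26.5% on chromosome 8 and 17.8% on chromosomes 1 and 4, against 12.3% over all. Chromosome 8 had 129 rises and 48 falls among 487 genes. The named genes Rpa3, Asns, Cyp51, Gnai1 and Cacna2d1 of chromosome 4, and Uqcrc1, Sdhd, Manf, Rpl14, Rpsa and Rpl4 of chromosome 8, thus counted in both the gene lists and the position counts. The windows and chromosomes were described with no test, and chromosome 8 was singled out after its values were seen.

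**Figure D4:**
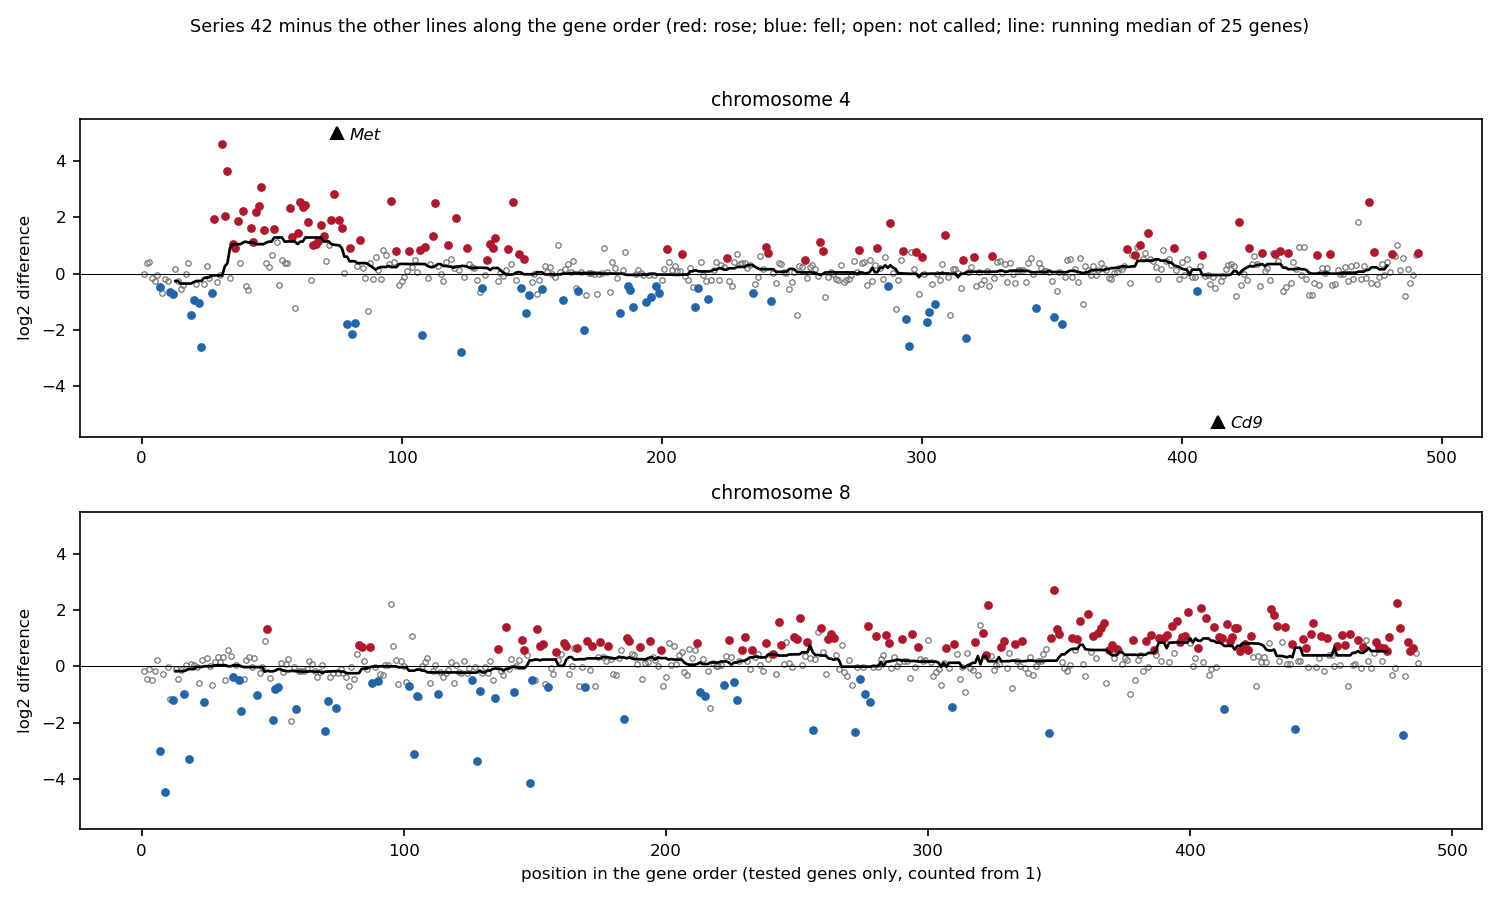
Difference in log2 intensity between series 42 and the mean of the other lines for the tested genes of chromosomes 4 and 8 in their gene order, with red for rises, blue for falls, open points for genes not called, black triangles for Met and Cd9 and a black line for the running median of 25 genes without those 2. The running median stands near 1 over the genes leading up to Met on chromosome 4 and is raised over the later part of chromosome 8.

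Few genes were called for a course over passages that differed between series 42 and the other lines. A slope in log2 per transplant, counting the primary tumor as 0, was computed for each line, and the slope of series 42 differed from the mean of the others for 2 of 8499 genes (0.0235%), with 159 at an unadjusted p below 0.05. Wnt4, a secreted Wnt ligand of the mammary ductal epithelium, was at 5.74, 6.29, 8.28, 7.72, 8.5 and 9.25 in series 42 from primary tumor to transplant 5. Its slope was 0.68, against -0.34 to -0.05 in the other 10 lines (difference 0.87 ± 0.10 SE, adjusted p = 0.00942). H19, an imprinted noncoding RNA of fetal tissue and muscle, was at 13.16, 10.05, 9.46, 9.08, 9.19 and 8.68, a slope of -0.73, against -0.11 to 0.11 elsewhere (difference -0.71 ± 0.08 SE, adjusted p = 0.00841).

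The 2 slopes were less secure than the levels. Over transplants 1 to 5 alone limma called 0 genes (64 had an unadjusted p under 0.05), and the slope difference was 0.72 for Wnt4 and -0.25 for H19. Wnt4 lost its call on leaving out transplant 1 (adjusted p = 0.0587), transplant 5 (adjusted p = 0.462) or the series 32 transplant 5 array (adjusted p = 0.0806).

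The primary tumor of series 42 stood apart from its own transplants for a few genes of muscle differentiation. In a comparison added after the slopes were seen, primary tumor minus the mean of the transplants in series 42 differed from the same difference in the other lines for 11 of 8499 genes (0.129%), with 389 at an unadjusted p below 0.05. Myog, the transcription factor of muscle differentiation whose upstream stretch is shown above, was at 10.00 in the primary tumor and 7.52, 7.47, 7.68, 7.55 and 7.46 in transplants 1 to 5, against 6.08, 7.07 and 7.75 at the lowest, median and highest in the other lines. The primary tumor lay above every other array of the study for this gene, and the transplants did not. The difference of differences was 2.52 ± 0.23 (SE, adjusted p = 0.00104).

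The acetylcholine receptor subunit Chrna1 (1.99 ± 0.32), the troponins Tnnt3 (1.73) and Tnni1 (1.63), the calcium store proteins Tmem38a (1.67) and Srl (1.6), H19 (4.05), Slc25a21 (1.49) and Stmp1 (1.19) were also higher in the primary tumor by this measure. Wnt4 (-3.17) and Ankrd1 (-2.23), a stretch-responsive muscle protein at the floor in the primary tumor and at 7.47 to 7.86 in the transplants, were lower. Tnnc1, the slow troponin C, was below the filter and was not tested, at 10.45 in the primary tumor and 9.02, 8.73, 7.38, 7.59 and 8.0 in the transplants, against 5.31, 5.31 and 8.23 elsewhere. Myod1, Musk and Des showed no such step. The comparison rests on 1 primary tumor, and with the transplants fitted alone Myog lost its call for the level, with a difference of 0.40. Markers of other cell types moved in the same array: the adipocyte list averaged 7.10 in the primary tumor and 6.19 to 6.55 in the transplants, the milk list 7.55 and 6.68 to 6.71, and Csn3 (9.59), Lcn2 (8.77) and Spint2 (8.30) stood above every transplant of the line. Their part in the muscle gene values was not tested.

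**Figure D5:**
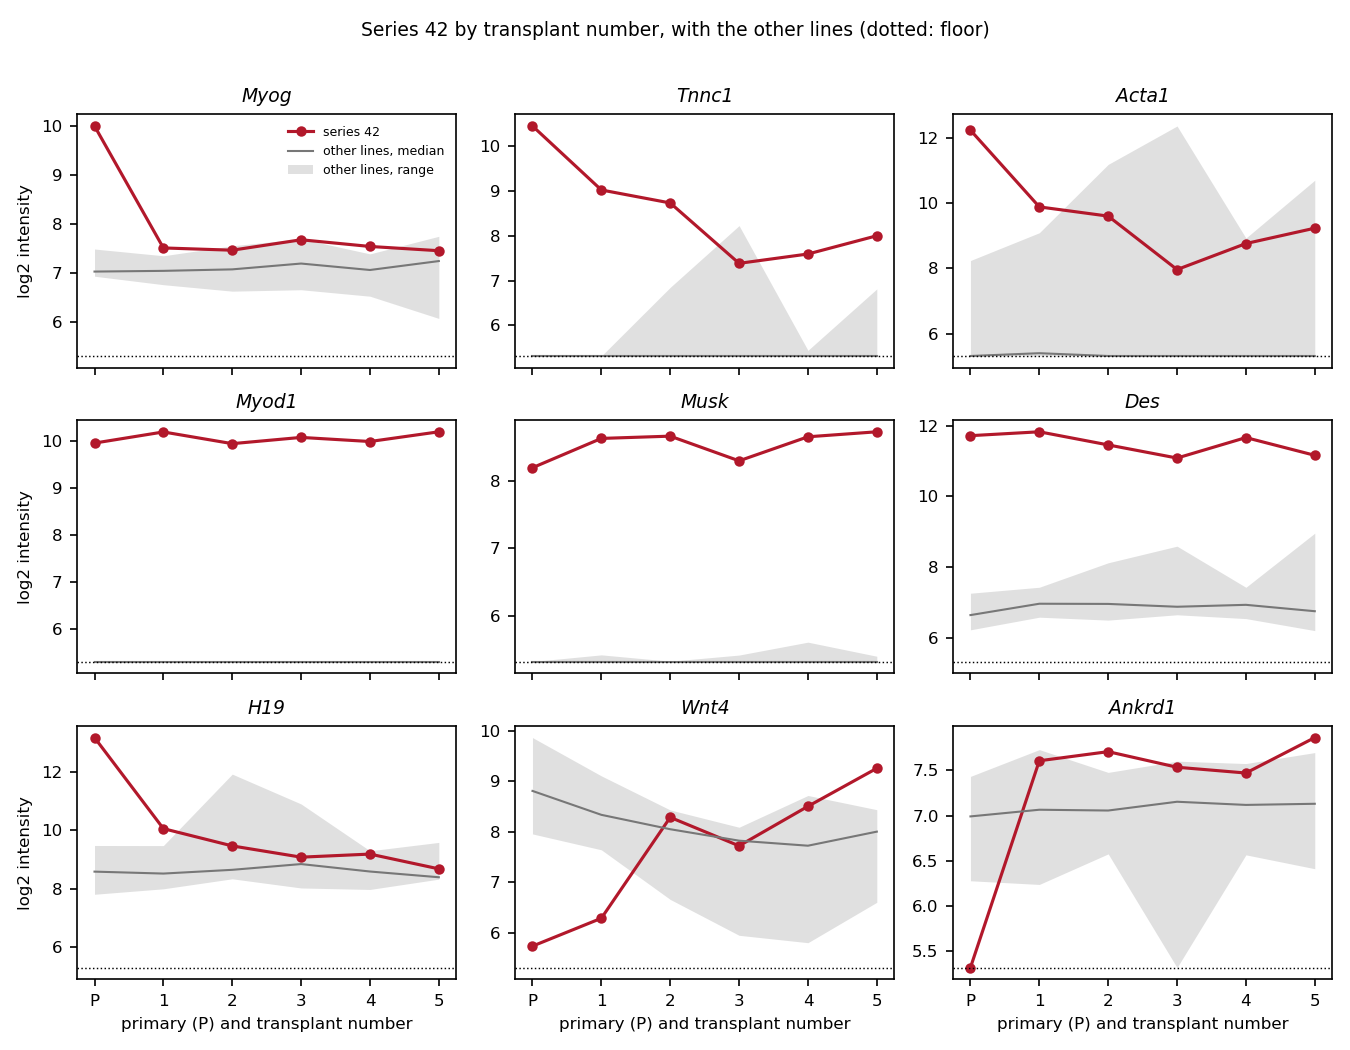
Log2 intensity of 9 genes in series 42 (red) from primary tumor to transplant 5, with the median (grey line) and range (grey band) of the other lines at each generation, the floor as a dotted line and a separate vertical scale per gene. Myog and H19 are highest in the primary tumor at 10.00 and 13.16, Wnt4 climbs to 9.25, and Myod1 stays between 9.94 and 10.20.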

How the data were processed

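The authors' deposited table gives 1 intensity per probe set for each of 65 arrays, unlogged and between 1 and 12011. Their summarisation and normalization are not given in the sources used here. Total RNA came from frozen tumor tissue, per the labels' protocols, and no detection call was used. Groups were taken from the titles, and series 10 is used here up to transplant 4.

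Each array was multiplied so that its 15866 non-control probe sets had a median of 162, then floored at the pooled 10th percentile (39.8) and put on the log2 scale. For each of 10411 genes the probe set with the highest mean was kept (12783 probe sets have 1 symbol, 312 several and 2771 none, and 12748 matched GRCr8). Genes with the lowest 25% of means (below 6.35) were not tested in the main setting. Tests used limma 3.58.1 in R 4.3.3 (lmFit and eBayes, two-sided, Benjamini-Hochberg over all genes tested, 0.05) on 1 value per line, with the transplant number as a replicate block when that value was made. The block holds generation fixed, and the line is the replicate because the arrays of a line descend from 1 tumor. The number of lines limits precision. Arrays within a line share a tumor of origin and were not counted as replicates of a condition.

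The line and the gene lists were chosen with earlier results of these data known. The genes named were the 12 largest rises and falls whose 6 arrays lie on 1 side of the other lines' median, up to 4 called members per list, the slope calls, the 5 genes on each side of Met and those stated to be picked later. In data simulated at the level comparison's size of 8499 genes, 57% of changes of 1 log2 unit and 94% of changes of 2 were found, with 9 false calls among 8299 genes. For the slope, 89% of differences of 0.5 and 97% of 1 were found, with 7 false calls. Whether these rates hold for the measured tumors, whose lines can have courses of their own, was not tested. Alternatives covered normalization, floor, filters, probe sets, covariates, left-out lines and arrays, and other models.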

Additional observations from a re-analysis of the deposited data

Results flagged for a closer look

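Within series 42, 1 array lay apart from the other 5 by Dixon's test for 25 of 195 genes checked. Some of the genes checked were picked after their values were seen, so the count cannot be set against a chance rate. The primary tumor was the array apart for 24 of the 25, high for 16 and low for 8. On the log2 scale it was high for Myog (10.00, against 7.46 to 7.68 in the transplants), H19 (13.16), Tnni1 (8.84), Srl (8.95), Myl4 (8.43), Myh3 (8.17), Mef2c (8.47), Tnnt1 (6.58) and Cacng1 (7.45), which are muscle genes or, for H19, abundant in fetal muscle. It was also high for Csn3 (9.59), Spint2 (8.30), Epcam (6.00) and S100b (6.39), and for Tspan12 (9.25), Gpd1 (7.91) and Kitlg (7.99). For Epcam and S100b the transplants were all at or near the floor, which by itself narrows their spread. The same holds for the muscle genes Myl4 (5.31 to 5.71 in the transplants), Cacng1 (5.31 to 5.74) and Tnnt1 (5.31 to 5.78). The primary tumor was low for Ankrd1 (5.31), Mmd (8.65), Fosl1 (9.24), Spp1 (10.91), Cks2 (9.79), Bst2 (10.36), Tap2 (7.57) and Rpl14 (11.85). The remaining array was transplant 5, low for Pecam1 at 6.92, against 7.24 to 7.43 in the other 5. The slope over transplant number differed between series 42 and the other lines for Wnt4 (0.87) and H19 (-0.71) by limma's test of the difference.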

How the results depend on the processing

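The count of 1891 genes with another level in series 42 was 1578 to 2108 on leaving out each line or each transplant number in turn, and 1847 to 2105 under quantile normalization, no rescaling, no floor, no filter or averaged probe sets. It was 1472 of 6017 tested with the filter at the median level. It was 1677 with series 25L and 25R averaged, since their titles share a series number. It was 1898 without the replicate block, 2594 with all arrays and the line as a random block (correlation within a line 0.27), 1453 in the transplants alone and 1141 in the primary tumors alone, and 4500 when all arrays were taken as independent, which the shared origin of a line's arrays does not allow. Of 135 named genes that were called, 80 kept the call in each of the 30 alternatives in which they were tested. Of the same genes, 3 reversed, each with the primary tumors alone: Tspan12 (0.11), Flt1 (-0.00021) and Psme2 (-0.0895). The cause was not tested. The count of 2 slope calls was 6 with no floor, 6 with no filter, 1 with the Gapdh ratio as a covariate, 0 by limma over transplants 1 to 5 (64 at an unadjusted p below 0.05), 1 to 2 on leaving out each transplant number or line, 1 without the series 32 transplant 5 array and 11 for the primary tumor minus its transplants, and the causes were not tested. With all arrays in 1 fit, 3 slopes were called, and H19 was not among them. Values at the floor have no order, and probe brightness over background could not be judged without detection calls.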
